A study of Mus musculus with 41 samples.

Results

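Collagen messenger RNAs other than those of collagen VI were followed through mouse endometriosis lesions by bulk RNA sequencing. The members are all rows of the count table whose symbol has the form Col, a number, a and a number, without those that begin Col6a, which left 36 of the 21249 genes in the table. RefSeq lists 38 mouse symbols of this form, and Col2a1 and Col9a1 had no row, so they were not analysed here. By protein class the 36 genes comprise 10 fibrillar collagens, 6 chains of basement membrane collagen IV, 8 fibril-associated collagens with interrupted triple helices (FACITs), 4 transmembrane collagens, 2 multiplexins, 3 short-chain network collagens and 3 others. The class was fixed from the protein family and not from any value.

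The libraries come from a transplantation model in which a uterine punch of 4 mm was glued inside the peritoneal cavity of mice 12 to 16 weeks old, and lesions were sequenced whole. From day 7 the mice received 3 intraperitoneal injections of 1 µg interleukin-33 (IL-33) or of PBS over 6 days, and some received group 2 innate lymphoid cells (ILC2s) on the preceding day. IL-33 is an alarm cytokine that activates ILC2s, which are tissue-resident lymphocytes that secrete type 2 cytokines. The 41 libraries form 11 groups. ILC2-deficient mice carried both the Nmur1iCre-eGFP driver and Id2fl/fl alleles, and their groups were given 250000 ILC2s with IL-33 (n = 4), IL-33 with added PBS (n = 4), 120000 ILC2s with IL-33 (n = 2), IL-33 alone (n = 4) or PBS alone (n = 4). In the lesion transfers, deficient recipients carried fragments with Nmur1iCre-eGFP alone (n = 4) and Nmur1iCre-eGFP recipients carried deficient fragments (n = 4), all with IL-33. ILC2-competent mice were C57Bl/6J with 120000 ILC2s and IL-33 (n = 3), C57Bl/6J with IL-33 (n = 4), Nmur1iCre-eGFP with IL-33 (Cre controls, n = 4) and Id2fl/fl with IL-33 (floxed controls, n = 4). The labelled genotype is that of the fragment, and recipients outside the transfers were taken to share it. The driver deletes Id2 only in cells that use Nmur1, and no competent group received PBS alone. No label states that replicates were separate mice. The p-values therefore reflect the spread among the libraries at hand, part of which may be technical.

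Collagens are proteins of 3 chains wound into a helix. Fibrillar collagens pack into the fibrils that give connective tissue its strength, FACITs bind to the surface of those fibrils, and collagen IV forms the sheet that underlies epithelium, endothelium and muscle fibres. Short-chain collagens form open networks, multiplexins stand at the junction of basement membrane and stroma, and transmembrane collagens cross the plasma membrane of the cell that makes them. In endometriosis, lesions are known to accumulate collagen and to scar, and fibroblasts are the main source of fibrillar collagen in most tissues.

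Library totals were 28884926 to 70526624 counts, and levels below are in CPM, that is counts scaled to library size with TMM factors. Id2 was measured at 28.9 to 83.1 CPM over the 41 libraries and was not called between recipients (log2 fold change 0.18 ± 0.18 SE, edgeR adjusted p = 0.570), and whole lesions do not check a deletion restricted to cells with the driver. Il13, a type 2 cytokine gene of ILC2s, was lower in deficient than in Cre-control recipients (−4.44 ± 0.41, edgeR adjusted p = 1.88e-08). Uterine stroma markers summed to 67.2 to 1406 CPM and smooth muscle markers to 1031 to 10721 CPM. Liver markers took over 1% of the counts in 4 libraries: replicate 2 of the deficient lesions with IL-33, replicate 3 of the wild-type lesions with 120000 ILC2s, replicate 4 of the wild-type lesions with IL-33 and replicate 3 of the Cre controls.

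The 36 collagen genes took 1.56% to 6.33% of a library (median 3.95%). Col1a1, Col1a2 and Col3a1, the chains of collagens I and III, held 78.4% to 87.1% of those collagen counts (median 82.3%). Levels between genes were compared per kilobase of annotated exon. This length joins the exons of all annotated transcripts of a gene, so ranks between genes depend in part on the annotation. On that scale Col1a1 led the fibrillar class and the whole set with a median of 2048 CPM per kb over 41 libraries (range 1118 to 3757). Col3a1 followed at 993 and Col1a2 at 619 CPM per kb. Col5a1, Col5a2 and Col5a3, chains of collagen V that control fibril diameter, had medians of 154.3, 96.7 and 41.96 CPM per kb. The remaining fibrillar genes were lower, with Col24a1 at 22.7, Col27a1 at 4.25, Col11a1 at 3.11 and Col11a2 at 0.726 CPM per kb. The fibrillar class therefore spans most of the range of the whole set.

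The major chains of basement membrane collagen IV ranked near collagen V, with Col4a1 at 105 and Col4a2 at 88.9 CPM per kb. Col4a5 and Col4a6 stood at 7.47 and 2.31, and Col4a3 and Col4a4 at only 0.309 and 0.407 CPM per kb. Among FACITs, Col14a1 led at 69.01, followed by Col12a1 at 49.3 and Col16a1 at 28.5 CPM per kb, while Col20a1, Col9a3, Col9a2, Col19a1 and Col22a1 had medians between 0.249 and 1.61. Col15a1 was the higher of the multiplexins (63.1 against 26.0 CPM per kb for Col18a1), and Col8a2 (6.58) and Col8a1 (5.52) were the main short-chain members. Col7a1, which forms the anchoring fibrils under epithelium, had 9.87 CPM per kb. Each of the transmembrane collagens was scarce, led by Col23a1 at 1.87 CPM per kb, and Col10a1, the collagen of hypertrophic cartilage, was lowest at 0.0389.

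**Figure D1:**
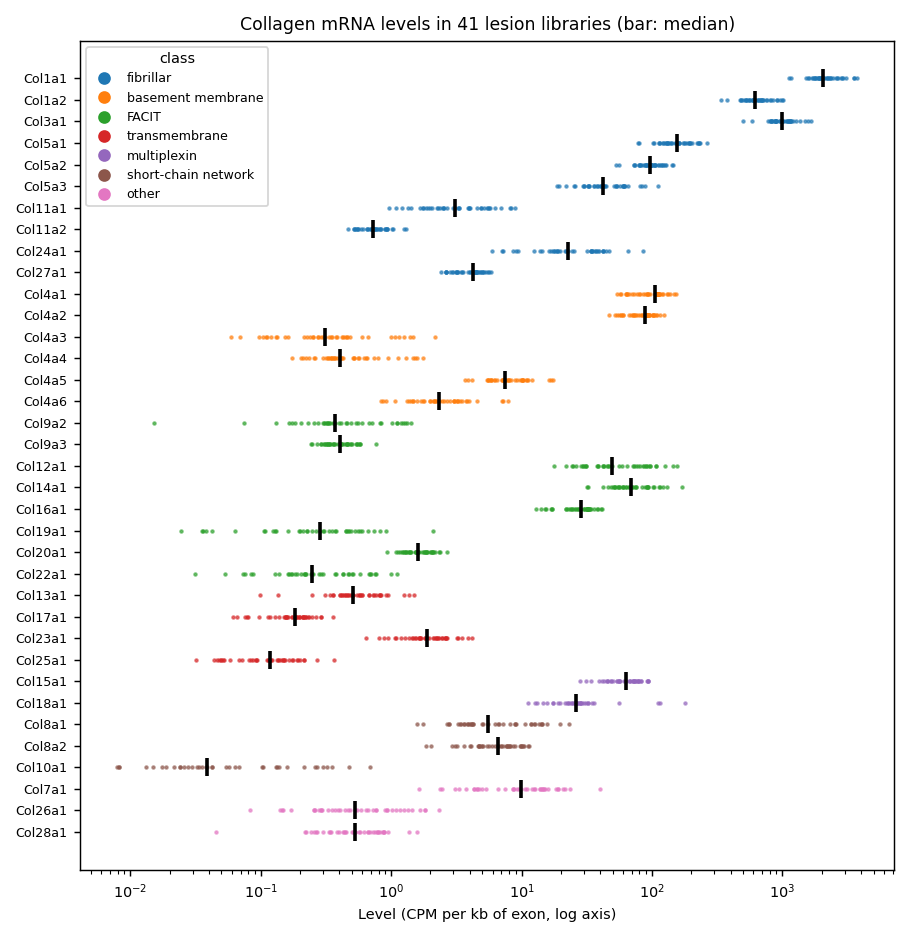
Level of each collagen gene in CPM per kilobase of exon on a log axis, 1 point per library, with a black bar at the median of 41 libraries and colours for the classes. Col1a1 lies highest and Col10a1 lowest, and libraries at 0 (some for Col10a1 and Col19a1) are not drawn.

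Recipient genotype was compared by setting deficient recipients, bearing deficient or Cre-control fragments, against Cre-control recipients bearing the same fragments (8 libraries against 8). Of the 36 collagen genes 6 were higher and 1 was lower in deficient recipients (edgeR quasi-likelihood test, Benjamini-Hochberg adjusted p under 0.05 over all genes). Of all genes tested, 5.02% were called higher and 6.29% lower. The higher members were Col11a1, Col12a1, Col8a1, Col4a1, Col4a3 and Col4a4, and the lower member was Col20a1. The abundant chains of collagens I, III and V were not among them. The median log2 fold change of the 36 members was 0.21, beside 0.0087 over all genes, and 24 of the 36 were above 0. The 2 sets of recipients overlapped for every member, and did not overlap for 1.49% of all genes.

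Deficient lesions with IL-33 were also set against the 3 competent genotypes with IL-33 (4 libraries against 12). This comparison shares the deficient lesions and the Cre controls with the preceding one, so it is not independent of it. It gave 6 members higher and 1 lower, where 6.24% of all genes were called higher and 4.72% lower. The median log2 fold change was 0.21 for the members and −0.015 for all genes. Col4a1 and Col4a2 were the 2 members whose deficient and competent libraries did not overlap, which held for 2.73% of all genes. Against the Cre controls alone 3 members were called, with 3.83% of all genes. In whole lesions, a change in the number of cells that express a gene and a change in its RNA per cell cannot be told apart.

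**Figure D2:**
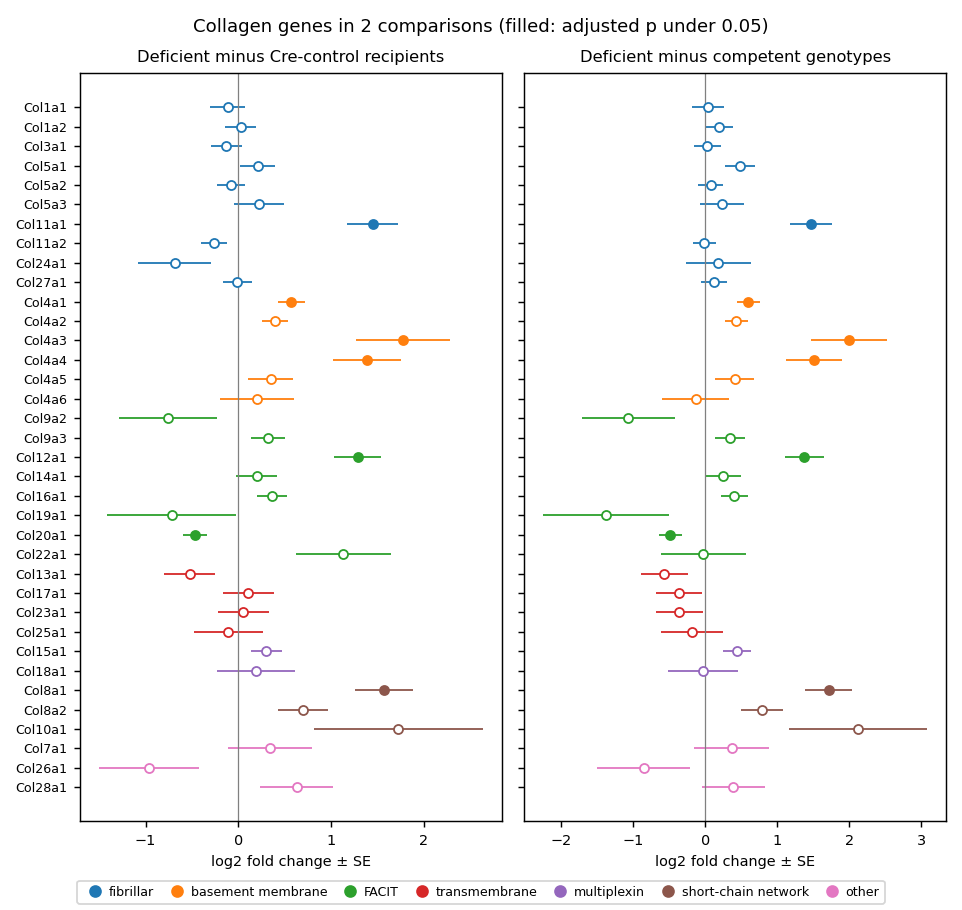
Log2 fold change with its standard error for each collagen gene, deficient minus Cre-control recipients on the left and deficient minus competent genotypes on the right, coloured by class and filled where the adjusted p was under 0.05. The filled points are Col11a1, Col4a1, Col4a3, Col4a4, Col12a1, Col20a1 and Col8a1 in both panels, and Col1a1, Col1a2 and Col3a1 lie between −0.13 and 0.19.

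Among fibrillar collagens, 1 of 10 was called. Col11a1 encodes a chain of collagen XI, which sits in the core of thin fibrils and is best known from cartilage; it lies at chr3:114030540-114220718, plus strand (GRCm38). It measured 70.1, 41.9, 72.6 and 114 CPM in deficient lesions and 39.7, 69.7, 37.8 and 103.6 CPM in Cre-control fragments in deficient recipients. The Cre controls had 41.5, 26.4, 31.9 and 17.3 CPM and deficient fragments in Cre-control recipients 14.0, 18.1, 23.5 and 30.2 CPM. In deficient recipients 6 of 8 libraries exceeded every Cre-control recipient, and the lowest 2 lay below the highest Cre control. The log2 fold change was 1.45 ± 0.27 (edgeR adjusted p = 0.000815) between recipients and 1.47 ± 0.29 (adjusted p = 0.00149) between deficient and competent genotypes. Over all groups, Col11a1 spanned 25.4 to 114 CPM (median 62.4) in the 22 libraries from deficient recipients and 12.3 to 42.2 CPM (median 24.5) in the 19 from competent ones.

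Col1a1, the main chain of collagen I, measured 18389, 11925, 14271 and 13442 CPM in deficient lesions and 14676, 14772, 7338 and 16794 CPM in Cre-control fragments in deficient recipients, against 15094, 17079, 13069.6 and 10978 CPM in Cre controls and 12789.6, 15391, 13539 and 23099.5 CPM in deficient fragments in Cre-control recipients. The groups overlapped through most of their range, and the log2 fold change was −0.11 ± 0.19 between recipients (adjusted p = 0.753) and 0.04 ± 0.22 between genotypes (adjusted p = 0.945). Col1a2, its partner chain, gave 0.02 ± 0.16 and 0.19 ± 0.19, and Col3a1, the chain of collagen III, −0.13 ± 0.16 and 0.03 ± 0.19. None of these reached the threshold, and the standard errors allow shifts of either sign. Col5a1 gave 0.21 ± 0.19 between recipients and 0.48 ± 0.21 between genotypes (unadjusted p = 0.0285, adjusted p = 0.139). The largest negative value of the class between recipients was Col24a1 at −0.69 ± 0.40 (adjusted p = 0.283), which read 0.18 ± 0.45 between genotypes.

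Among FACITs, 1 of 8 was called higher and 1 lower. Col12a1 encodes collagen XII, which coats collagen I fibrils in tendon, ligament and other loaded tissue; it lies at chr9:79598991-79718831, minus strand. It measured 1198, 750.3, 2352 and 1311 CPM in deficient lesions and 1632, 1901, 638 and 1378 CPM in Cre-control fragments in deficient recipients. Cre controls had 709.5, 432, 589 and 372 CPM, and deficient fragments in Cre-control recipients 471, 851, 575 and 589 CPM. Deficient recipients lay above every Cre-control recipient in 6 of 8 libraries, and the exceptions were the liver-bearing deficient library and replicate 3 of the transferred Cre-control fragments. The log2 fold change was 1.29 ± 0.25 between recipients (edgeR adjusted p = 0.00115) and 1.37 ± 0.27 between genotypes (adjusted p = 0.00139). In deficient lesions with PBS alone Col12a1 measured 900.4, 1416, 1468 and 1628 CPM. Competent recipients, all with IL-33, spanned 272 to 984 CPM (median 471) over 19 libraries, which overlaps the lowest of these. These groups differ in genotype and in cytokine, and the difference was not tested.

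Col20a1, a FACIT of low level at chr2:180986535-181018363, plus strand, was the one member called lower. It measured 9.32, 5.79, 6.59 and 5.65 CPM in deficient lesions and 6.66, 8.82, 4.78 and 6.20 CPM in Cre-control fragments in deficient recipients. The Cre controls had 8.02, 9.61, 7.98 and 8.36 CPM and deficient fragments in Cre-control recipients 9.61, 11.9, 9.15 and 10.3 CPM. Of the deficient recipients 6 of 8 lay below every Cre-control recipient. The log2 fold change was −0.47 ± 0.13 between recipients (edgeR adjusted p = 0.0169) and −0.49 ± 0.16 between genotypes (adjusted p = 0.0387). This call was lost without replicate 4 of the deficient lesions, with adjusted p = 0.0534 and 0.227, and in several other settings.

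Col14a1, the most abundant FACIT per length, spanned 223 to 728 CPM (median 552) in deficient recipients and 294 to 524 CPM (median 455) in Cre-control recipients. It was not called (0.20 ± 0.22, edgeR adjusted p = 0.633). Its lowest 2 deficient-recipient libraries lay below all Cre-control recipients and its highest 4 above them. Col16a1, a FACIT of many connective tissues, had 95.3 to 261 CPM (median 217) against 112.5 to 213 CPM (median 158.2) and a log2 fold change of 0.36 ± 0.16 (unadjusted p = 0.0339, adjusted p = 0.156). Col22a1, found at tissue junctions such as muscle and tendon, gave 1.13 ± 0.51 between recipients (adjusted p = 0.158) but −0.03 ± 0.59 between genotypes. Col9a2, Col9a3 and Col19a1 gave −0.76 ± 0.52, 0.32 ± 0.18 and −0.72 ± 0.70 between recipients, none called.

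Of the basement membrane chains, 3 of 6 were called higher. Col4a1 and Col4a2 encode the chains of the collagen IV found in nearly all basement membranes, and lie head to head on chromosome 8 with start sites 21 bases apart. Col4a1 (chr8:11198423-11312826, minus strand) measured 885, 836, 819.7 and 844 CPM in deficient lesions and 813, 1095, 633 and 1149 CPM in Cre-control fragments in deficient recipients. The Cre controls had 574, 526.1, 588 and 605 CPM and deficient fragments in Cre-control recipients 480.4, 679.7, 479 and 829.3 CPM. All 4 deficient lesions exceeded all 4 Cre controls, whereas replicates 2 and 4 of the deficient fragments in Cre-control recipients reached the levels of deficient recipients. The log2 fold change was 0.57 ± 0.14 between recipients (edgeR adjusted p = 0.00899) and 0.60 ± 0.16 between genotypes (adjusted p = 0.0147). The genotype comparison gave adjusted p = 0.0580 without replicate 4 of the deficient lesions. The partner Col4a2 gave 0.40 ± 0.14 (adjusted p = 0.0581) and 0.43 ± 0.16 (adjusted p = 0.0698), just short of the threshold, and passed it in both comparisons under the DESeq2 Wald test (adjusted p = 0.0269 and 0.0444).

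Col4a3 and Col4a4 encode chains of the collagen IV of kidney glomerulus and some epithelia, mutated in Alport syndrome, and are also a head-to-head pair, on chromosome 1 with start sites 72 bases apart. Col4a3 (chr1:82586921-82722059, plus strand) measured 11.4, 14.7, 2.91 and 21.5 CPM in deficient lesions and 1.30, 2.76, 10.7 and 6.57 CPM in Cre-control fragments in deficient recipients. The Cre controls had 4.80, 2.49, 2.39 and 3.49 CPM and deficient fragments in Cre-control recipients 1.09, 1.03, 2.75 and 2.12 CPM. Above all Cre-control recipients were 3 of 4 deficient lesions and 2 of 4 transferred Cre-control fragments, while the other 3 libraries lay among them. The log2 fold change was 1.77 ± 0.51 between recipients (edgeR adjusted p = 0.0212) and 2.00 ± 0.52 between genotypes (adjusted p = 0.0125). Without the liver-bearing libraries these became 1.67 (adjusted p = 0.0607) and 1.86 (adjusted p = 0.0605), and without replicate 4 of the deficient lesions the adjusted p values were 0.0523 and 0.115.

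Col4a4 (chr1:82448423-82586849, minus strand) measured 10.1, 18.8, 6.01 and 16.1 CPM in deficient lesions and 3.75, 4.06, 11.9 and 7.86 CPM in Cre-control fragments in deficient recipients. The Cre controls had 5.54, 3.93, 4.30 and 3.67 CPM and deficient fragments in Cre-control recipients 2.49, 2.25, 3.59 and 3.45 CPM. The 5 libraries that were high for Col4a3 and replicate 3 of the deficient lesions lay above all Cre-control recipients, and the other 2 overlapped them. Its log2 fold change was 1.38 ± 0.37 between recipients (edgeR adjusted p = 0.0124) and 1.51 ± 0.39 between genotypes (adjusted p = 0.0103), where it fell short without the liver-bearing libraries (adjusted p = 0.0766) and without replicate 4 of the deficient lesions (adjusted p = 0.0670).

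Epithelial markers moved with this pair in part. The 6 epithelial markers summed to 357, 297, 153 and 1177 CPM in deficient lesions and 13.3, 118, 686 and 136 CPM in Cre-control fragments in deficient recipients, against 189.6, 168, 438 and 200.2 CPM in Cre controls and 47.4, 105, 195 and 165 CPM in deficient fragments in Cre-control recipients. Of the 6 markers 0 were called between recipients and 1 was higher between genotypes, with median log2 fold changes of 0.85 and 1.26. Of all genes, 5.02% were called higher between recipients and 6.24% between genotypes. Replicate 4 of the deficient lesions and replicate 3 of the transferred Cre-control fragments had the highest sums and were among the highest for Col4a3 and Col4a4. The part of epithelial content in the result was not tested. The other chains of the class, Col4a5 and Col4a6, gave 0.35 ± 0.24 and 0.20 ± 0.40 between recipients and were not called.

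Of the short-chain network collagens, 1 of 3 was called. Col8a1 encodes a chain of collagen VIII, a hexagonal network collagen of vessel wall and the corneal Descemet membrane, and lies at chr16:57624258-57754737, minus strand. It measured 98.2, 49.0, 153.8 and 106 CPM in deficient lesions and 109.97, 99.2, 31.9 and 51.3 CPM in Cre-control fragments in deficient recipients. The Cre controls had 39.8, 12.4, 26.5 and 30.1 CPM and deficient fragments in Cre-control recipients 25.6, 32.9, 38.8 and 26.9 CPM. In 7 of 8 deficient recipients the level exceeded that of every Cre-control recipient, and replicate 3 of the transferred fragments was the exception. The log2 fold change was 1.57 ± 0.31 between recipients (edgeR adjusted p = 0.00141) and 1.71 ± 0.33 between genotypes (adjusted p = 0.00113). Col8a1 kept an adjusted p under the threshold in each fit that left out 1 library, at 0.000608 to 0.00429 between recipients and 0.00114 to 0.00848 between genotypes.

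Col8a2, the second chain of collagen VIII and the most abundant of this class per length, spanned 13.1 to 50.1 CPM (median 39.6) in deficient recipients and 18.2 to 26.8 CPM (median 22.1) in Cre-control recipients. Its log2 fold change was 0.70 ± 0.27 (adjusted p = 0.0870) and 0.79 ± 0.29 between genotypes (adjusted p = 0.0789). Without the liver-bearing libraries it was called in both comparisons, at 0.84 (edgeR adjusted p = 0.0384) and 0.99 (adjusted p = 0.0402). Col10a1 gave 1.72 ± 0.91 and 2.12 ± 0.96 and was not called; its libraries read 0 to 1.48 CPM in the recipient comparison.

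Among multiplexins, 0 of 2 were called. Col15a1 spanned 216 to 591 CPM (median 452) in deficient recipients and 249 to 520.3 CPM (median 351) in Cre-control recipients (0.30 ± 0.17, adjusted p = 0.270). Col18a1, whose end fragment is endostatin and which liver cells also make, was highest in the libraries with liver markers: 392.2 CPM in the deficient lesion, 1251 and 784 CPM in the wild-type lesions and 811 CPM in the Cre control. With all libraries its log2 fold change between recipients was 0.19 ± 0.42 (adjusted p = 0.823). Without the liver-bearing libraries it was 0.55 (edgeR adjusted p = 0.0446), a call that the full set did not give.

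No transmembrane collagen was called (0 of 4; log2 fold changes between recipients −0.52 to 0.11, lowest adjusted p = 0.233). Col23a1, their leader, spanned 5.08 to 15.3 CPM (median 8.95) in deficient recipients and 4.60 to 14.1 CPM (median 10.1) in Cre-control recipients. Col17a1, the hemidesmosome collagen of epithelium, gave 0.11 ± 0.27. The 3 remaining members were not called either. Col7a1 spanned 16.7 to 223 CPM (median 128) in deficient recipients and 25.1 to 188 CPM (median 106.6) in Cre-control recipients (0.34 ± 0.46), and Col26a1 and Col28a1 gave −0.96 ± 0.54 and 0.63 ± 0.39. In the DESeq2 Wald test 9 members were called between recipients and 8 between genotypes, where it called 14.6% of all genes in each comparison.

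**Figure D3:**
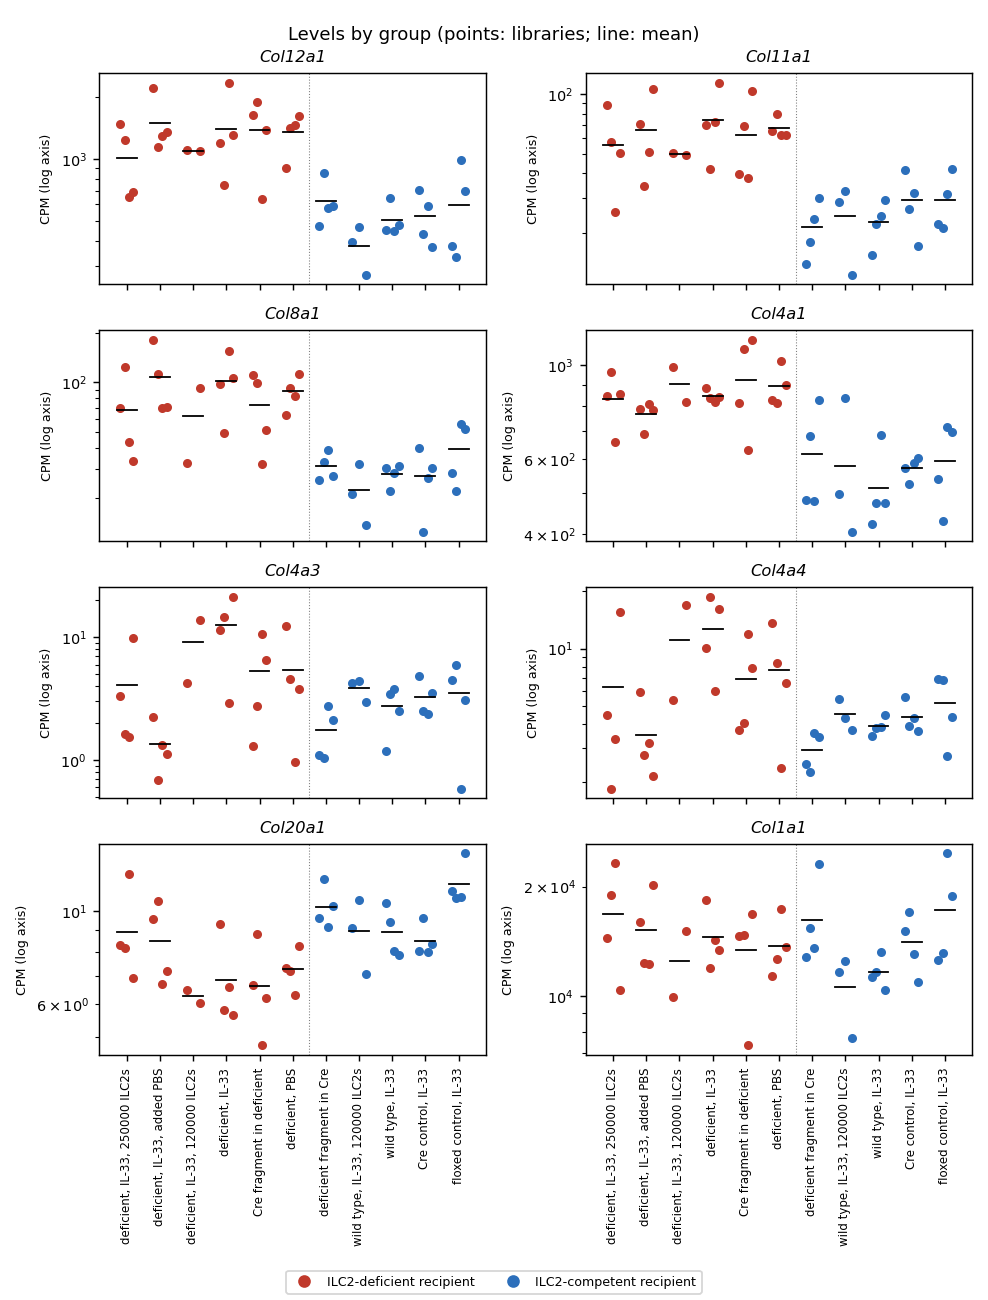
CPM on a log axis of the 7 called collagen genes and Col1a1, 1 point per library with a line at the group mean, deficient recipients (red) left of the dotted line and competent recipients (blue) right of it. Col12a1, Col11a1, Col8a1 and Col4a1 run higher across the red groups, Col4a3 and Col4a4 are high in some red libraries, and Col1a1 overlaps throughout.

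The recipient comparison was split by fragment. Cre-control fragments alone (4 libraries against 4) gave 4.05% of all genes and 2 members, Col12a1 (1.40, edgeR adjusted p = 0.0237) and Col4a1 (0.69, adjusted p = 0.0497). Deficient fragments alone gave 4.54% of all genes and 4 members, with Col11a1 at 1.80, Col8a1 at 1.71, Col4a3 at 2.85 and Col4a4 at 2.11 (adjusted p = 0.00815, 0.0236, 0.0252 and 0.0186). The members called in 1 fragment genotype had the same sign in the other: Col11a1 and Col8a1 read 1.10 and 1.43 in Cre-control fragments, Col4a3 and Col4a4 read 0.70 and 0.66 there, and Col12a1 and Col4a1 read 1.17 and 0.46 in deficient fragments. The difference between the fragments was tested as an interaction. The same contrast sets lesions in their own genotype against transferred lesions, so fragment genotype and transfer cannot be told apart in it. In this interaction 0 members and 0.414% of all genes were called. Unadjusted p was under 0.05 for 2 members and 13.9% of all genes. Col4a3 had the lowest adjusted p, at 2.15 ± 1.00 (adjusted p = 0.323). DESeq2 also called 0 members, with 1.66% of all genes.

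Ratios between collagen mRNAs within a library do not depend on its scaling. The pairs were chosen after the fold changes of the members had been seen, so the ratios are descriptions with no test, and their absolute size depends on the annotated exon lengths. The ratio of Col4a1 to Col4a2 per length was 1.19, 1.24, 1.20 and 1.19 in deficient lesions and 1.21, 1.27, 1.23 and 1.25 in Cre-control fragments in deficient recipients. It was 1.07, 1.05, 1.04 and 1.11 in Cre controls and 1.07, 1.12, 1.14 and 1.09 in deficient fragments in Cre-control recipients. The 8 deficient recipients lay above the 8 Cre-control recipients without overlap, within each fragment genotype as well, and also without the liver-bearing libraries. Over all groups the ratio was 1.11 to 1.27 (median 1.21) in 22 libraries from deficient recipients and 1.00 to 1.17 (median 1.09) in 19 from competent ones, with overlap.

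Col1a1 to Col1a2 was 2.96 to 3.42 in deficient recipients and 3.32 to 3.66 in Cre-control recipients, with overlap, and 3.34 to 3.80 over the 3 competent genotypes. Col12a1 to Col1a1 was 0.0271 to 0.0710 in deficient recipients and 0.0109 to 0.0238 in Cre-control recipients, without overlap. Col12a1 was called higher in these same libraries and Col1a1 was not, so this ratio is no separate result. How often ratios of other gene pairs do not overlap was not counted. Col11a1 to Col5a1 was 0.0174 to 0.0480 against 0.00855 to 0.0214, with overlap. Col8a1 to Col8a2 was 0.847 to 1.95 against 0.391 to 1.05, again with overlap. Col3a1 to Col1a1 overlapped through most of its range, at 0.388 to 0.516 against 0.422 to 0.525, and Col4a3 to Col4a4 spanned 0.369 to 1.42 against 0.468 to 1.01. Col5a1 to Col5a2 was 1.38 to 2.20 against 1.25 to 1.74, with overlap. Col12a1 to Col14a1 was 0.529 to 2.66 against 0.390 to 1.11, with overlap too.

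**Figure D4:**
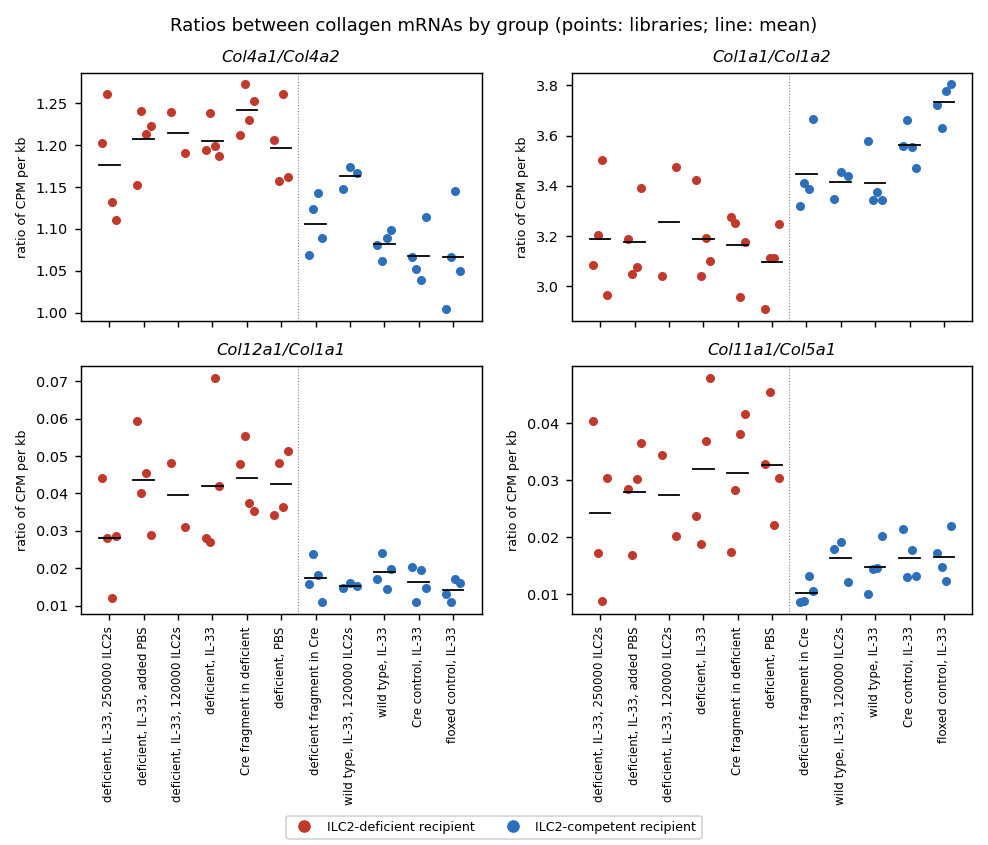
Ratios of CPM per kilobase between pairs of collagen mRNAs, 1 point per library with a line at the group mean, deficient recipients (red) left of the dotted line and competent recipients (blue) right of it. Col4a1 to Col4a2 is 1.19 to 1.27 in the 8 deficient recipients with IL-33 of the recipient comparison and 1.04 to 1.14 in its 8 Cre-control recipients.

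Start-site regions of 5 of the 7 called members are shown, because some of these genes share one with a neighbouring collagen; Col12a1 and Col4a3 are named only. RefSeq (GRCm38.p6) gave 250 bases before and 50 bases after the start for 28 of the 36 members. The windows are Col11a1 at chr3:114030290-114030589, plus strand, Col8a1 at chr16:57754688-57754987, minus strand, Col4a1 at chr8:11312777-11313076, minus strand, Col4a4 at chr1:82586800-82587099, minus strand, Col20a1 at chr2:180986285-180986584, plus strand and, as an abundant member that was not called, Col1a2 at chr6:4505368-4505667, plus strand. Each is printed 5′ to 3′ on the gene's strand, and capitals mark matches on either strand to a CCAAT box (CCAAT) or a GC box (GGGCGG).
Col11a1: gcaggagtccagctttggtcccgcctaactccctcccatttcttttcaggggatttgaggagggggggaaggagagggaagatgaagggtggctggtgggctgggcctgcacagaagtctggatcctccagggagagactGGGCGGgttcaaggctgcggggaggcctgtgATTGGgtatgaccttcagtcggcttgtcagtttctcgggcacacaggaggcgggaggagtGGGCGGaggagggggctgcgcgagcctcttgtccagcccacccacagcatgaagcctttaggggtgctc
Col8a1: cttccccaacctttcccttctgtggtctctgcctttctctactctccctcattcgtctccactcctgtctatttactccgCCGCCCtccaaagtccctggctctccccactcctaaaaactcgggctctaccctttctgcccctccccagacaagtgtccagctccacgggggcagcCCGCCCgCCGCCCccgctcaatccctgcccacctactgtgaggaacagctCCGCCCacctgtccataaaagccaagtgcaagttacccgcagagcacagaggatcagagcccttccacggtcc
Col4a1: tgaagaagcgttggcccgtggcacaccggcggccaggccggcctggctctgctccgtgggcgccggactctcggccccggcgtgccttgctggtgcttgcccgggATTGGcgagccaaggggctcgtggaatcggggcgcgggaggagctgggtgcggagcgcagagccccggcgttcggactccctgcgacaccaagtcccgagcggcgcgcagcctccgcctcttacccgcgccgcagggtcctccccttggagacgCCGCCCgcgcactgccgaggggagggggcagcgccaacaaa
Col4a4: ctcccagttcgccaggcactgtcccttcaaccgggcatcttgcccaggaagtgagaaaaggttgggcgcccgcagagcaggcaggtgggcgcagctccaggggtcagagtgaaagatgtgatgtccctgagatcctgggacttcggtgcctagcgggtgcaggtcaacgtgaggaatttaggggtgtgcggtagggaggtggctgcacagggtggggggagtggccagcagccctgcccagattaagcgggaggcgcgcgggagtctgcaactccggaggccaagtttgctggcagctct
Col20a1: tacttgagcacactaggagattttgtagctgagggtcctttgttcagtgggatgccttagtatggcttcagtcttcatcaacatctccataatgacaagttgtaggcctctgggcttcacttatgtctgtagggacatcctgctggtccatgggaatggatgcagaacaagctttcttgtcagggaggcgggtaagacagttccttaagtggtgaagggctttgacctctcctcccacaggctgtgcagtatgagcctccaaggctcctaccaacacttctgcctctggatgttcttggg
Col1a2: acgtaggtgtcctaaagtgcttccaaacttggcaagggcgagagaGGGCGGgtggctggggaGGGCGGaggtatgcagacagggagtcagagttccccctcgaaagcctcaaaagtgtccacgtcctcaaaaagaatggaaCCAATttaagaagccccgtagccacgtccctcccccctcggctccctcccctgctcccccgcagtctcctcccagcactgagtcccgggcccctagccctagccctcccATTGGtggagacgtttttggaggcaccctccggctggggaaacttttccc

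These windows differ in base composition, with 74.0% G and C for Col4a1, 63.3% for Col4a4, 62.3% for Col11a1, 60.3% for Col8a1, 61.0% for Col1a2 and 50% for Col20a1. Col8a1 has 4 GC box matches, Col11a1 has 2 with 1 CCAAT box, Col1a2 has 2 with 2 CCAAT boxes, Col4a1 has 1 of each, and Col4a4 and Col20a1 have none. The Col4a1 window shares 78 bases with that of Col4a2 on the other strand. Of the 28 members 18 had a GC box and 11 a CCAAT box in any of their windows. Of the 32851 mouse windows of the same length 35.66% and 37.41% did, a share counted by window and not by gene. The TATA box (TATAAA) was found for 5 members and in 13.62% of all windows. An AP-1 motif (TGANTCA) and a STAT6 motif (TTC and GAA with 4 bases of any kind between), searched on both strands, were in 0 member windows and in 7.808% and 6.953% of all windows, which says only that these letters are not in these windows.

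IL-33 was compared with PBS in deficient mice (4 libraries against 4). No member was called, 0.00941% of all genes were, and 0 members had an unadjusted p under 0.05, beside 6.76% of all genes. DESeq2 also called 0 members, with 0.0872% of all genes. Col12a1 measured 1403 ± 677 CPM with IL-33 and 1353 ± 315 CPM with PBS (SD, n = 4 each), a log2 fold change of 0.05 ± 0.35. Col11a1, Col8a1 and Col4a1 gave 0.15 ± 0.38, 0.21 ± 0.43 and −0.08 ± 0.20, and Col1a1 0.08 ± 0.27. Col4a3 had the lowest adjusted p of the members, 1.22 ± 0.70 (adjusted p = 0.831).

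Transfer of 250000 ILC2s into deficient mice was set against added PBS (4 libraries against 4), and 0 members and 0% of all genes were called. Unadjusted p was under 0.05 for 8.7% of all genes and 3 members: Col7a1 at 1.73 ± 0.66, Col4a3 at 1.60 ± 0.72 and Col14a1 at −0.72 ± 0.32 (adjusted p = 0.567, 0.570 and 0.570). Col12a1 measured 1482, 1233, 651 and 688 CPM with ILC2s and 2209, 1148, 1296 and 1358 CPM with added PBS. Replicates 3 and 4 with ILC2s lay below every library with added PBS, and the log2 fold change of −0.57 ± 0.35 was not called (adjusted p = 0.621). Col8a1 showed 70.1, 123, 43.3 and 33.5 CPM with ILC2s and 181, 111.7, 69.6 and 71.0 CPM with added PBS (−0.68 ± 0.44), and Col11a1 gave −0.25 ± 0.38. Il13 averaged 0.190 CPM with ILC2s and 0.134 CPM with added PBS (0.43 ± 0.57, edgeR adjusted p = 0.833). Its mean was 1.11 CPM in wild-type lesions with IL-33, 2.51 in Cre controls and 0.928 in floxed controls. Whether the transferred cells were present in the lesions was not tested.

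Transfer of 120000 ILC2s into deficient mice (2 libraries against 4) called 0 members and 0% of all genes, and 1 member, Col13a1, had an unadjusted p under 0.05 (−1.03 ± 0.50), beside 1.88% of all genes. Col12a1 was 1109.7 and 1088 CPM with ILC2s and 1198, 750.3, 2352 and 1311 CPM without. Il13 averaged 0.0595 CPM with these ILC2s and 0.0538 CPM without. In wild-type mice (3 libraries against 4) the same dose called 0 members and 0% of all genes, and Col27a1 alone of the members had an unadjusted p under 0.05 (0.50 ± 0.24), beside 3.96% of all genes. Col12a1 was 395, 465 and 272 CPM with ILC2s and 452, 646, 447 and 479 CPM without. DESeq2 called 0 members in each of the 3 ILC2 transfers, with 0.0678% of all genes for 250000 ILC2s, 0.0436% for 120000 in deficient mice and 0.0145% for 120000 in wild-type mice. With 2 to 4 libraries a group, the standard error of Col12a1 was 0.35 to 0.44 on the log2 scale in these comparisons. Much larger shifts could go uncalled too, as Col7a1 did at 1.73 with 250000 ILC2s (edgeR adjusted p = 0.567). The absence of a call therefore does not exclude them.

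Fragment genotype, deficient against Cre-control fragments over both recipients (8 libraries against 8), called 0 members and 0.00471% of all genes, and 1 member, Col11a2, had an unadjusted p under 0.05 (0.31 ± 0.14), beside 3.92% of all genes. Between fragments Col12a1 gave 0.13 ± 0.25, Col11a1 −0.10 ± 0.27 and Col4a1 −0.01 ± 0.14. DESeq2 called 0 members here too, with 0.063% of all genes.

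The control genotypes were compared among themselves. Cre controls against floxed controls called 0 members and 0.329% of all genes; 14.5% of all genes and 5 members had an unadjusted p under 0.05, these members all lower in Cre controls, with Col20a1 (−0.45 ± 0.18, adjusted p = 0.258), Col11a2, Col22a1, Col23a1 and Col28a1. For Col20a1 the Cre controls measured 7.98 to 9.61 CPM and the floxed controls 10.7 to 13.7 CPM. Wild type against both other controls called 0 members and 2.65% of all genes, with an unadjusted p under 0.05 for Col11a2 (−0.48 ± 0.18), Col16a1 (−0.47 ± 0.20) and Col27a1 (−0.44 ± 0.20), 3 members in all, beside 19.8% of all genes. DESeq2 called 0 members in both, with 1.11% of all genes in the Cre against floxed comparison and 6.03% in the wild-type one.

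Added PBS was set against IL-33 alone in deficient mice (4 libraries against 4), which compares groups of the same genotype and cytokine. It called 0 members and 0.0141% of all genes in edgeR, and 5 members and 16.4% of all genes had an unadjusted p under 0.05. DESeq2 called 3.72% of all genes and 2 members, Col4a3 and Col4a4, both lower with added PBS. Col4a3 measured 2.26, 0.693, 1.32 and 1.11 CPM with added PBS and 11.4, 14.7, 2.91 and 21.5 CPM with IL-33 alone (−3.23 ± 0.76, edgeR adjusted p = 0.0799). Col4a4 measured 5.91, 2.77, 3.21 and 2.15 CPM with added PBS and 10.1, 18.8, 6.01 and 16.1 CPM with IL-33 alone (−1.86 ± 0.52, adjusted p = 0.110). All 4 Col4a3 values with added PBS were below the 4 Cre controls. Epithelial markers summed to 12.4, 20.4, 70.6 and 27.2 CPM with added PBS and 357, 297, 153 and 1177 CPM with IL-33 alone, and their part in the difference was not tested. Col12a1, Col11a1 and Col8a1 gave 0.10 ± 0.35, −0.18 ± 0.38 and 0.09 ± 0.43 between these groups.

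Genes that act on collagens were read from the same fits. Of all genes, 5.02% were called higher and 6.29% lower between recipients, and 6.24% and 4.72% between genotypes. In lists this short, small counts are not far from these shares. Of 22 genes for hydroxylation, folding and export of procollagen, 2 were higher and 2 lower in deficient recipients (median log2 fold change −0.14), and 4 were higher and 0 lower between genotypes (median 0.048). P4ha3, a catalytic subunit of prolyl 4-hydroxylase, spanned 9.10 to 31.8 CPM (median 22.6) in deficient recipients and 7.55 to 15.4 CPM (median 10.9) in Cre-control recipients (1.06 ± 0.20, edgeR adjusted p = 0.000885). Colgalt2, which adds galactose to hydroxylysine, spanned 1.16 to 5.73 CPM (median 3.91) against 1.11 to 2.05 CPM (median 1.28) (1.46 ± 0.30, adjusted p = 0.00179). The genes called lower were its more abundant relative Colgalt1 (−0.35 ± 0.08, adjusted p = 0.00578) and the lysyl hydroxylase Plod1 (−0.24 ± 0.07, adjusted p = 0.0309). Between genotypes the calls were Colgalt2 (1.31 ± 0.32), P4ha3 (1.17 ± 0.22), Plod2, which hydroxylates lysines of the collagen telopeptides (0.77 ± 0.16), and the procollagen folding enzyme Fkbp14 (0.60 ± 0.15).

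Of 8 genes for procollagen cleavage, 1 was higher and 1 lower in both comparisons. Adamts3, a protease that removes the amino-terminal propeptide, spanned 26.0 to 50.02 CPM (median 40.4) in deficient recipients and 11.7 to 42.4 CPM (median 23.0) in Cre-control recipients (0.72 ± 0.21, edgeR adjusted p = 0.0240), and gave 1.19 ± 0.23 between genotypes. Pcolce2, an enhancer of removal of the carboxy-terminal propeptide, spanned 1.77 to 7.53 CPM (median 3.80) in deficient recipients and 14.6 to 30.5 CPM (median 18.8) in Cre-control recipients, without overlap (−2.29 ± 0.38, adjusted p = 0.000181). Between genotypes Pcolce2 gave −1.71 ± 0.47.

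Small leucine-rich proteoglycans, which bind collagen fibrils and set their spacing, had 5 of 13 genes higher and 0 lower in each comparison. The 5 were not all the same genes. Median log2 fold changes were 0.89 between recipients and 0.74 between genotypes. The abundant Dcn (decorin) gave 0.10 ± 0.20 and 0.52 ± 0.22, and Bgn (biglycan) −0.04 ± 0.17 and 0.09 ± 0.20, in that order. Neither was called. Ogn (osteoglycin) spanned 117 to 257 CPM (median 195) in deficient recipients and 48.3 to 140.8 CPM (median 93.2) in Cre-control recipients (1.09 ± 0.25, edgeR adjusted p = 0.00481). Aspn (asporin) spanned 54.7 to 195 CPM (median 127) against 28.2 to 90.3 CPM (median 59.3) (1.16 ± 0.31, adjusted p = 0.0125). Omd (osteomodulin) gave 1.48 ± 0.36, and Kera (keratocan) 3.97 ± 0.82 from levels no higher than 1.15 CPM with Cre-control recipients at or near 0, so that this fitted value depends on the prior count.

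Of 16 laminins and other basement membrane partners, 1 was higher between recipients, Lama3 (1.21 ± 0.36, edgeR adjusted p = 0.0240), and 0 were lower. Lama3 encodes a laminin chain found beneath epithelium. Between genotypes Lamb1, a laminin chain of many basement membranes, was higher (0.45 ± 0.15, adjusted p = 0.0431). Of 10 measured collagen receptors and uptake genes, 1 was higher in both comparisons: Itga2, the alpha chain of a collagen-binding integrin, spanned 11.7 to 94.9 CPM (median 26.5) in deficient recipients and 6.92 to 20.0 CPM (median 16.2) in Cre-control recipients (1.34 ± 0.36, adjusted p = 0.0131). Epithelial marker sums, given above by library, were highest in 1 library of each deficient-recipient group, and their part in the calls of Lama3 and Itga2 was not tested. The discoidin domain receptors and the beta chain of the collagen-binding integrins were on this list and not called.

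**Figure D5:**
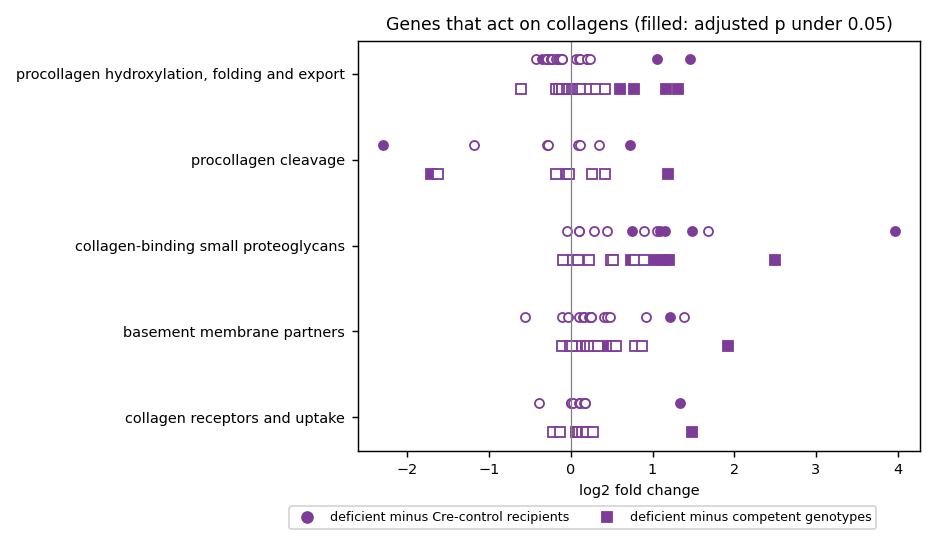
Log2 fold changes of genes that act on collagens, 1 point per gene in 5 lists, circles for deficient minus Cre-control recipients and squares for deficient minus competent genotypes, filled where the adjusted p was under 0.05. Small proteoglycans lie mostly right of 0, with Kera at 3.97 and 2.49, and Pcolce2 is the filled point far left.

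Cell type markers were read beside these results, where 5.02% of all genes were called higher and 6.29% lower between recipients. Fibroblast markers summed to 856.1 to 1260.0 CPM in deficient recipients and 807.2 to 1117 CPM in Cre-control recipients, with 2 of 7 called higher. Endothelial markers summed to 394.3 to 701.8 CPM against 376.9 to 572.3 CPM, with 2 of 6 higher. Macrophage markers summed to 706.5 to 1208 CPM in deficient recipients and 1005 to 2401 CPM in Cre-control recipients, with 1 of 4 lower, and mesothelial markers to 74.1 to 149.4 CPM against 102.5 to 260.1 CPM, with 1 of 5 lower. Adipocyte markers summed to 1.06 to 294.2 CPM against 1.04 to 36.8 CPM, with 2 of 4 higher. These calls are those between recipients. Between genotypes 1 of 6 endothelial and 2 of 4 adipocyte markers were higher, and 0 fibroblast, macrophage and mesothelial markers were called. There 6.24% of all genes were called higher and 4.72% lower. Of the uterine stroma, smooth muscle, skeletal muscle, nerve, liver and general immune markers 0 were called in either comparison. Skeletal muscle markers summed to 11156 to 176516 CPM in deficient recipients and 79.5 to 94282 CPM in Cre-control recipients. With such a spread, the lack of a call does not show like composition. The part of cell composition in the collagen results was not tested.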

How the data were processed

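Gene counts, not normalized, are what the authors deposited: a single table with 21249 genes and 41 libraries. The submitters' processing notes name Trimmomatic, STAR, HTSeq, edgeR, limma and build GRCm38. Versions, annotation and strand setting are not given in the sources used here, so overlapping and antisense reads cannot be separated. The lowest gene total was 411 counts, so scarcer genes had been left out by an unstated rule.

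The 41 libraries were fitted together with edgeR 4.0.16 (R 4.3.3) as 11 group means with TMM scaling and robust dispersions; 11 contrasts were tested by the two-sided quasi-likelihood test and adjusted by Benjamini-Hochberg at 0.05 over all genes. The filterByExpr step removed none, and the biological coefficient of variation was 0.465. Standard errors were taken as |log2 fold change| over the root of F. Exon lengths and positions came from GENCODE M21. DESeq2 1.42.0 was an alternative, and the fit was tested on simulated data. Members, lists and motifs were chosen with earlier results of these data known. The ratios between chains were chosen after the fold changes were seen; permutation tests run on them at first were dropped for that reason, and they are given with no test. Values in every library, or the lowest, median and highest where a side has over 5, are given for called members and each class's leader, and at most 4 called genes are named per list in each comparison. Library totals of 28884926 to 70526624 counts set the counting error of scarce members. No batch is labelled, and runs of library names follow the groups in part: only deficient lesions with Cre controls, and 250000 ILC2s with added PBS, interleave, and elsewhere run and group cannot be told apart. Chi-square per degree of freedom was 19.7 to 1314 in 58 within-group pairs, so none was a duplicate. One gene of the basement membrane partner list is not reported here.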

Additional observations from a re-analysis of the deposited data

Results flagged for a closer look

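Of 117 groups examined over the 13 called or class-leading collagen genes, 6 held 1 library far from the rest, where chance gives about 5%. Col11a1 read 80.0 CPM in replicate 2 of the deficient lesions with PBS, with 62.4 to 65.3 CPM in the others. Col12a1 read 646 CPM in replicate 2 of the wild-type lesions with IL-33, where the others had 446.6 to 478.7 CPM. Col20a1 read 13.7 CPM in replicate 4 of the floxed controls, above 10.7 to 11.2 CPM. Col15a1 read 355 CPM in replicate 4 of the deficient lesions with IL-33, the library with the highest epithelial marker sum, below 452.1 to 455.0 CPM. Col8a2 was apart in 2 groups. It read 21.02 CPM in the liver-bearing replicate 2 of the deficient lesions with IL-33, below 45.5 to 50.1 CPM, and 31.0 CPM in replicate 3 of the wild-type lesions with IL-33, above 13.9 to 16.1 CPM. The part of liver or epithelial content in these values was not tested.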

How the results depend on the processing

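Between recipients 7 members were called; scaling, filters, the replicate block, the liver-bearing libraries, the groups fitted and DESeq2 moved this to 6 to 9. Splitting by fragment, chosen after seeing the data, gave 2 in Cre-control fragments and 4 in deficient fragments. Between genotypes 7 were called, 5 to 9 under the same settings and 3 against the Cre controls alone (Col11a1, Col12a1 and Col8a1). Leaving out 1 library gave 5 to 9 between recipients and 3 to 9 between genotypes, the 3 without replicate 4 of the deficient lesions. With added PBS the count of 0 became 2 under DESeq2, and 0 to 2 without 1 library, the 2 without replicate 3 of the deficient lesions with IL-33. The other 8 comparisons stayed at 0 in all settings run. Libraries with the same replicate number did not vary together over all genes (median correlation −0.00097, lowest −0.634, 191 pairs). Of the libraries 17.1% correlated best with their own number. No pairing by number was seen, which does not exclude one. With the replicate block 7 members were called in each of the 2 main comparisons.

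Calls lost in single settings were those of Col4a3, Col4a4, Col4a1, Col20a1, Col11a1, Col8a1 and Col12a1, the last 3 only when 1 fragment genotype was fitted. The call of Col4a3 between recipients was also lost without replicate 2 of the deficient fragments in Cre-control recipients (adjusted p = 0.0506) or replicate 3 of the Cre-control fragments in deficient recipients (0.0554), that of Col20a1 without the first of these (0.0572), and that of Col4a4 between genotypes without replicate 2 of the deficient lesions (0.0667). Col20a1 between genotypes was lost in 7 of 16 such fits. Calls were gained as well. Between recipients Col16a1 was called without replicate 3 of the Cre-control fragments in deficient recipients (edgeR adjusted p = 0.0316). Col10a1 was called there without replicate 4 of the deficient fragments in Cre-control recipients (edgeR adjusted p = 0.0479). Col4a2 and Col8a2 were called in some such fits of both comparisons, and Col15a1 between genotypes under another processing setting. Members that changed sign were uncalled with all libraries and settings as first run. Between recipients Col1a2 read −0.0446, Col5a3 −0.227, Col27a1 0.209, Col13a1 0.00877, Col25a1 0.5003 and Col26a1 0.173 in deficient fragments; Col5a2 0.0879, Col19a1 0.0811, Col18a1 −0.588 and Col7a1 −0.577 in Cre-control fragments. Col27a1 read 0.00981 with DESeq2 size factors, 0.000945 with the replicate block, 0.0286 without liver-bearing libraries, 0.0240 in the groups compared alone and 0.00989 with DESeq2. Between genotypes Col11a2 read 0.00380 with DESeq2 size factors and 0.00387 with DESeq2. Against Cre controls alone Col11a2 read 0.0486, Col24a1 −0.179, Col22a1 0.971, Col17a1 0.00127 and Col25a1 0.341. Col22a1 read 0.0288 and Col18a1 0.364 without liver-bearing libraries, and Col18a1 0.163 with the replicate block. The cause of these changes was not tested.

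Without 1 library, sign changes came between recipients for Col1a1 (−0.182 to 0.00147), Col1a2 (−0.0411 to 0.131), Col5a2 (−0.133 to 0.0280), Col27a1 (−0.0829 to 0.0934), Col4a6 (−0.243 to 0.361), Col17a1 (−0.0770 to 0.256), Col23a1 (−0.0964 to 0.183) and Col25a1 (−0.251 to 0.0681). Between genotypes they came for Col1a1 (−0.0991 to 0.132), Col3a1 (−0.0466 to 0.129), Col11a2 (−0.0399 to 0.0291), Col24a1 (−0.0748 to 0.401), Col4a6 (−0.325 to 0.0388), Col22a1 (−0.781 to 0.185) and Col18a1 (−0.367 to 0.355).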
